A study of Mus musculus with 125 samples.

Results

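The regions described here were open in the endothelium of the adult mouse kidney and were not called open in the endothelium of the other 5 adult organs or in whole adult kidney. Overlapping ATAC-seq peaks of the 12 adult endothelial libraries were merged into 109038 regions. Of these, 23462 had a peak in both adult kidney endothelial libraries, and 1273 of those had none in the other 10 endothelial libraries, from brain, heart, liver, lung and retina. A peak of adult kidney input, which is nuclei of the whole organ, overlapped 715 of the 1273, and the remaining 558 are the kidney-only regions. They are numbered K001 to K558 in genome order. They were selected on the presence of peaks in the 14 adult libraries named, so what those libraries show at the 558 regions is a description, and the P6, E12 and other input libraries were not used in it.

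Endothelial cells line blood vessels. In the kidney they form the fenestrated capillaries of the glomerulus, through which plasma is filtered, the peritubular capillaries, which take back what the tubules reabsorb, and the vasa recta, which run beside the loops of the medulla. ATAC-seq maps open chromatin, because a transposase cuts DNA where it is not covered by nucleosomes. Promoters tend to be open in many cell types, whereas enhancers, which can lie far from the gene they act on, are more often open in a few.

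The series profiled 66 ATAC-seq libraries of mouse nuclei, 37 labelled endothelial and 29 labelled input. The groups used here are kidney, brain, heart, liver, lung and retina of adult mice aged 2 months and of pups, and trunk, brain and heart of embryos at day 12.5 (E12). All groups, inputs included, came from animals given tamoxifen at 0.015 mg/kg, which switched on a GFP reporter in vessels, and tissue without GFP was not taken further. Adults were injected 7 days before collection. The pup group is named P6, while the protocol gives collection at P7. Strain, Cre driver and whether replicates came from separate animals are not given in the sources used here, so the spread shown is that between libraries. Each group has 2 to 4 endothelial libraries. Adult and P6 kidney have 2 endothelial libraries each, with 2 and 3 inputs, and trunk has 4 with 1 input.

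Of the 558 regions, 4 reached into the 250 bases before a transcription start of the RefSeq promoter table, and those stretches are shown because they are the kidney-only regions for which sequence beside a start can be read (RefSeq, GRCm38.p6). Each is the part of the promoter window under the peak, 5′ to 3′ in the direction of the gene. The genes are Igf1os, which is transcribed antisense within the growth factor gene Igf1, Sox6, which encodes an SRY-box transcription factor, the predicted gene Gm16619 and the odorant receptor gene Olfr99. Capitals mark a searched motif.
Igf1os, chr10:87863394-87863547, minus strand: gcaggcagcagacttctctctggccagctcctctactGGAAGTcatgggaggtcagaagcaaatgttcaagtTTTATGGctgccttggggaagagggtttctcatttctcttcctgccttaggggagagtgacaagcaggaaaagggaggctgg
Sox6, chr7:115824711-115824924, minus strand: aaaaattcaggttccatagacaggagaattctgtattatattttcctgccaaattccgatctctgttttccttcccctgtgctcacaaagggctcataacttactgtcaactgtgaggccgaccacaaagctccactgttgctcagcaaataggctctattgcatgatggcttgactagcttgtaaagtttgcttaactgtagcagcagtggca
Gm16619, chr16:49800304-49800528, plus strand: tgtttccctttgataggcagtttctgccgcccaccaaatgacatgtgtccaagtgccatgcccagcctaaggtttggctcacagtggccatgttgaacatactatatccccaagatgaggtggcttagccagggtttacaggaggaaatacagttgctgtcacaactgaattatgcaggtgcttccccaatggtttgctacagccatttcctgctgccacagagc
Olfr99, chr17:37280419-37280668, minus strand: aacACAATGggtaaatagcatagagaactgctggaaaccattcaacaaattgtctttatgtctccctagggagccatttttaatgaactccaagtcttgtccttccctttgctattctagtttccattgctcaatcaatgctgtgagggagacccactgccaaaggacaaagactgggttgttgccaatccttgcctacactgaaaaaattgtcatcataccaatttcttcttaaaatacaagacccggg
The Igf1os stretch holds the ETS letters GGAAGT and the HOX letters TTTATGG. Over the same 154 bases of all 32851 promoters of the table, 13.8% hold GGAAGT and 1.39% hold TTTATGG on either strand. The Olfr99 stretch holds the SOX letters ACAATG, found in 10.7% of promoters over the same 250 bases. No other of the 18 searched motifs occurs in the 4 stretches, and a match of letters is a description, not a binding site. At P6 the Igf1os region (K339) had a peak in both kidney libraries and both heart libraries, and it had none in the 11 E12 endothelial libraries. The Sox6 region (K232) had a peak in both P6 kidney libraries and 4 others, and in all 4 trunk libraries. The Gm16619 region (K498) was shared most widely, with 9 other P6 libraries, all 4 trunk libraries and all 7 E12 brain and heart libraries. The Olfr99 region (K513) had a peak in 1 P6 kidney library and in no other P6 or E12 endothelial library.

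The kidney-only regions were about as wide as all merged regions, and their folds were below those of regions with a peak in both kidney libraries. Their width ran from 211 to 1241 bp with a median of 392 bp, against 417 bp for all merged regions and 400 bp for the 715 input-overlapping ones. Regions with a peak in both kidney libraries had 814 bp. A merged region takes in the peaks of every adult endothelial library that has one there, so this last width is not on equal terms. The authors' fold, the ratio of a peak's mean pileup to the background around it, had a median of 3.53 in adult kidney endothelial library 1 (2.3 to 6.39) and 3.89 in library 2 (2.15 to 7.24). Over all regions with a peak in both libraries, the medians were 4.03 and 4.45, and over all peaks of each library 3.91 and 3.92. The lowest −log10 q among the 558 was 1.21 in library 1 and 1.15 in library 2. Of these, the weakest was K266, at chr8:92364255-92364723 and 2.8 kb from Irx5, a homeobox gene, with folds of 2.97 and 2.56. Next came K344 inside Ntn4, which encodes a netrin of the basement membrane, and K273, 39.7 kb from Cdyl2, which encodes a chromodomain protein. Just outside the choice lay chr4:13267752-13268505 near Triqk and chr7:121697217-121697925 near Usp31, each barred by a peak of adult heart endothelial library 2 at a −log10 q of 1.09 and 1.12. Then chr1:73721613-73722254 near Tns1 was barred by kidney input 2 at 1.12. In all, 487 regions with a peak in both kidney libraries were barred by exactly 1 of the 12 other libraries, 241 of them by a kidney input. Another 1782 regions met every other condition but had a peak in 1 kidney library, 327 in library 1 and 1455 in library 2.

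Kidney-only regions lay inside genes less often, and more than 50 kb from them more often, than the larger sets did. Of the 558, 227 (40.7%) lay inside a protein-coding gene, compared with 60.3% of all merged regions and 70.4% of those with a peak in both kidney libraries. A further 141 (25.3%) lay outside but within 50 kb of one, compared with 24.1% of all merged regions and 19.1% of those in both kidney libraries. Another 190 (34.1%) lay more than 50 kb away, compared with 15.6% and 10.5%. The 715 regions that overlapped a kidney input peak were closest to these shares, with 46.9% inside a gene and 29.0% more than 50 kb away. Of the 190, 19 were more than 500 kb from any protein-coding gene. They are 3.41% of the 558, beside 2.05% of all merged regions, 0.635% of those in both kidney libraries and 4.62% of the input-overlapping ones. The median distance to the nearest end of a protein-coding gene was 48827.5 bp, compared with 18756.5 bp over all merged regions and 5019 bp over regions with a peak in both kidney libraries. Starts themselves were rarely covered. Within 1 kb of a start of the promoter table lay 15 of 551 regions (2.72%), against 14.3% of all merged regions, 39.3% of those in both kidney libraries and 6.1% of the input-overlapping ones. The table holds no start on chromosome 18, where the other 7 regions lie. Position was given by gene bodies and starts, and exons, introns and UTRs were not annotated here.

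**Figure D1:**
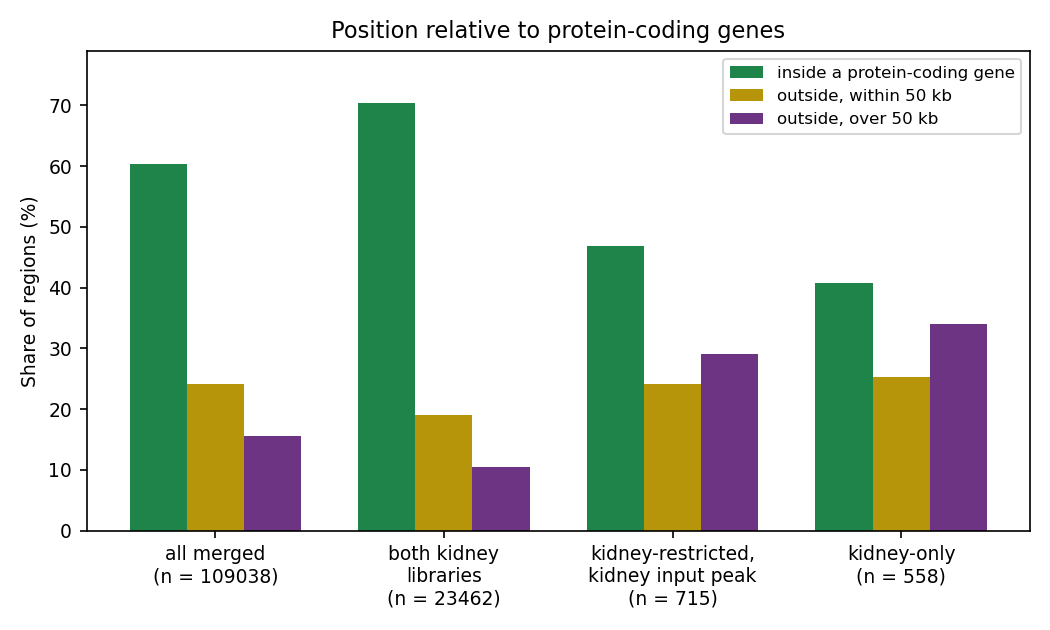
Share of regions (%) inside a protein-coding gene, outside within 50 kb and outside by more than 50 kb, for 4 sets of adult regions. The kidney-only bars show 40.7%, 25.3% and 34.1%, and the bar for regions over 50 kb away is higher than the 15.6% of all merged regions.

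The 558 regions were spread over 461 nearest protein-coding genes. Of these genes, 393 were nearest to 1 region, 49 to 2 and 19 to 3 or more. The most were nearest to Nuf2, Dkk2, Fam155a and Plet1, with 5 each, and to Dlg2 and Efnb2, with 4. Another 13 genes tied at 3, of which Rbms1, Inpp4b, Pard3 and 1700057G04Rik come first in genome order. All 19 genes together took 67 regions, of which 24 lay inside the gene. At P6, 54 of the 67 (80.6%) had a peak in both kidney libraries, beside 76.5% of the 558 and a background of 33.9% over all merged regions. Of the 67, 24 (35.8%) had in addition none in any other P6 endothelial library, beside 22.6% and 0.582%. The genes were ranked by these same regions, and nothing particular to them is read from the shares. Among the 19, the share of a gene's nearest adult regions that were kidney-only was highest for genes with few such regions, with 3 of 6 for Dram1, 3 of 7 for Gcnt1 and 3 of 8 for 1700057G04Rik. Among the genes with 4 or 5, Dkk2, which encodes a secreted modulator of Wnt signalling, drew 5 of the 17 adult regions nearest to it (29.4%). For Plet1, an epithelial surface protein gene, the count was 5 of 22, and for Nuf2, a kinetochore gene, 5 of 24. Over all merged regions the kidney-only share was 0.512%, and over regions in both kidney libraries 2.38%. Dlg2, a synaptic scaffold gene, had 4 of 60 and Pard3, a polarity gene, 3 of 57.

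Of the 558 kidney-only regions, 98 (17.6%) had another within 50 kb, 42 of them inside genes and 56 between genes. Among the 715 input-overlapping regions, a set of similar size, 14.0% had another of their own set that close. In the larger and denser sets the share was 82.1% (regions in both adult kidney libraries) and 96.3% (all merged regions). The intervals below were ranked after the values were seen. Described are 5 intervals with at least 4 of them, which held 21 kidney-only regions.

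The 695 kb between Ncam1, a cell adhesion gene, and Plet1 held 5 kidney-only regions within 81.1 kb, from chr9:50335964 to chr9:50417081. K288, K289 and K291 had a peak in both P6 kidney libraries and in no other P6 endothelial library. K290 had a peak in 1 P6 kidney library, and K292 in both P6 kidney and both P6 heart libraries. Trunk had a peak at 1 of the 5, in 1 of 4 libraries. Between Papss1, which makes the sulfate donor of the cell, and Dkk2 lay 4, and K113 and K114 lay inside Dkk2. K112, 78.6 kb before Dkk2 at chr3:132006191-132006689, was among the strongest of all kidney-only regions. Its fold was 6.39 and 5.27 in the adult libraries, 5.82 and 6.32 at P6, and 6.81, 6.46, 9.09 and 7.45 in trunk. It was also open in 10 of 12 other P6 endothelial libraries. K110, 145 kb before Dkk2, had a peak in both P6 kidney libraries and in no other P6 or E12 endothelial library.

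Between Igfbp3, which encodes a binding protein of insulin-like growth factors, and Tns3, a focal adhesion gene, 4 kidney-only regions spread over 663 kb. Of these, K366 and K367 had a P6 peak in both kidney libraries and no other endothelial one, and had a peak in all 4 trunk libraries. K366 also had one in all 3 E12 brain and 3 E12 heart libraries and K367 in 1 E12 brain library, while K365 had none at P6 or E12. The interval from Egln3, an oxygen-sensing prolyl hydroxylase gene, to Sptssa held 4 within 78.5 kb, all with a peak in both P6 kidney libraries and none in 2 or more trunk libraries. The 3510 kb between Slc10a2, a bile acid transporter gene, and Efnb2, the gene of the arterial ligand ephrin-B2, held 4 more than 1 Mb from Efnb2. In the 5 intervals together, 17 of 21 had a peak in both P6 kidney libraries, 9 were restricted to kidney at P6, and 12 had no peak in trunk. These shares are 81.0, 42.9 and 57.1%, beside 76.5, 22.6 and 42.3% of all 558 (background 33.9, 0.582 and 40.9%), and with 21 regions ranked after their values were seen nothing particular to the intervals is read from them.

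**Figure D2:**
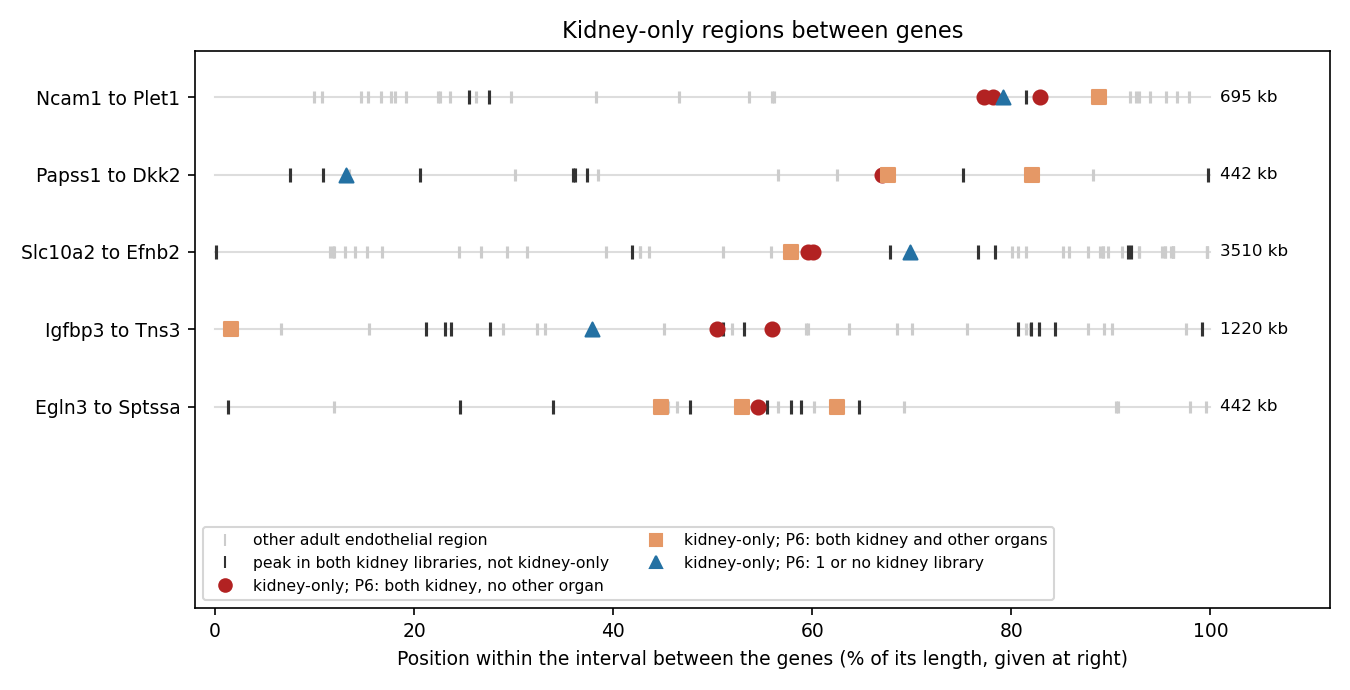
Position of adult endothelial regions in 5 intervals between genes that hold at least 4 kidney-only regions each, as a percentage of the interval's length. Ticks are other adult regions and coloured marks the 21 kidney-only regions by their P6 peaks. The marks between Ncam1 and Plet1 stand near Plet1, and those between Egln3 and Sptssa in the middle of the interval.

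Lists of marker genes were searched for a kidney-only region within 50 kb of the gene. Of all 21887 protein-coding genes, 557 (2.54%) had one. Among the lists, general endothelial genes had 3 of 18 (Tek, Kdr and Fli1), peritubular and vasa recta genes 2 of 9 (Igfbp3 and Igf1), and genes of the VEGF and angiopoietin pathways 2 of 10 (Kdr and Tek, counted already). Glomerular endothelial genes had 0 of 12, kidney endothelial transcription factors 0 of 12, arterial genes 0 of 9 and HOX genes 0 of 39. Genes of podocytes, tubules and other nephron epithelium had 1 of 38, which was Slc4a1. Genes of mesangial, smooth muscle and renin cells had 0 of 10, and immune genes 0 of 7. Of the 31 kidney endothelial list genes, 2 had a region within 50 kb, 1 within 10 kb and 0 when the regions were chosen with stricter kidney peaks (−log10 q of at least 3). These counts are small, and no test of a list was made.

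HOX genes, which set position along the body axis, are among the list genes at which the input condition removed regions. Within 50 kb of a HOX gene lay 60 merged regions, 26 of them with a peak in both adult kidney libraries. Of these, 7 met the endothelial conditions and overlapped a kidney input peak, and 0 were left among the 558. Of the 39 HOX genes, 18 had such an input-overlapping region within 50 kb, all in the HoxA and HoxB clusters and resting on the same 7 regions. Of all 21887 protein-coding genes, 3.98% had one. Of 12 kidney endothelial transcription factors, 6 did: Prdm1, Irx3 and 4 HOX genes already counted (Hoxa7, Hoxa9, Hoxb7 and Hoxb9). Genes of podocytes, tubules and other nephron epithelium had 4 of 38 (Synpo, Umod, Pax8 and Cdh16). Genes of mesangial, smooth muscle and renin cells had 1 of 10 (Ren1). General endothelial genes had 2 of 18 (Tek and Fli1), VEGF and angiopoietin genes 2 of 10 (Tek and Angpt2) and glomerular endothelial genes 1 of 12 (Ehd3). Peritubular, arterial and immune genes had none. Whole-kidney nuclei, which include endothelial ones, also had a peak at these regions, and the peak lists do not tell which cells were open there.

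Tek, which encodes the angiopoietin receptor TIE2, had 3 kidney-only regions inside it or within 50 kb. K137 lay 27.2 kb before Tek at chr4:94711444-94711878, and nearer, at 18.2 kb, to Ift74, an intraflagellar transport gene, with folds of 3.48 and 2.83 in adult and 3.59 and 3.28 in P6 kidney. No other P6 endothelial library had a peak there, but all 4 trunk libraries had one, with folds of 3.05, 3.19, 3.4 and 3.49, and so did the 3 E12 brain libraries. K138, inside Tek and 2704 bp from its start (chr4:94741993-94742275), had 2.69 and 2.2 in adult and 3.84 and 3.45 in P6 kidney, and both P6 lung libraries shared it. Of the trunk libraries, 3 had a peak there, with folds of 2.08, 2.19 and 2.06, and so did the 3 E12 brain libraries. K139, near the far end of Tek (chr4:94855245-94855548), had 2.7 and 2.86 in adult kidney and no peak in P6 kidney or at E12, while both P6 lung libraries had one.

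Kdr, which encodes the main VEGF receptor of endothelium, had K162 at chr5:75906118-75906514, 26.3 kb beyond its 3′ end. The fold was 3.87 and 5.25 in adult kidney and 3.75 in P6 kidney library 1, with no peak in P6 library 2 or in another P6 endothelial library. K286 lay inside Fli1, an ETS factor gene of endothelium and blood, with 3.22 and 4.06 in adult and 3.91 and 3.19 in P6 kidney, and both P6 heart libraries shared it. Near Igfbp3, K364 (chr11:7235158-7235461, 19.7 kb away) had 3.69 and 3.41 in adult and 5.57 and 4.7 in P6 kidney. That region had a peak in 9 other P6 endothelial libraries and all 4 trunk libraries, so only the adult endothelial lists had it in kidney alone. The adult lists of the other organs held 19464 to 47334 peaks, and the region may be open there below their threshold. K339 inside Igf1 had 2.9 and 3.47 in adult and 3.71 and 3.23 in P6 kidney. K386 lay 21.2 kb from Slc4a1, the anion exchanger of red cells and acid-secreting collecting duct cells, but only 3.54 kb from Ubtf, an RNA polymerase I factor gene, with 3.15 and 2.88 in adult and 5.5 and 4.15 in P6 kidney. Of the 8 regions at list genes, 6 had a peak in both P6 kidney libraries (76.5% of the 558, background 33.9%) and 3 in at least 2 trunk libraries (47.3%, background 53.1%), counts too small to set them apart.

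Most kidney-only regions were already open in kidney endothelium at P6. P6 kidney endothelial library 1 had a peak at 505 of 558 (90.5%) and library 2 at 430 (77.1%). Shares of 2 larger sets are given beside such counts. Background is the share of all 109038 merged regions, which come from 6 organs, and adult kidney background that of the 23462 with a peak in both adult kidney endothelial libraries, of which the 558 are a part. Both P6 libraries had a peak at 427 kidney-only regions (76.5%, background 33.9%, adult kidney background 92.7%). A single one of the 2 had a peak at 81 (14.5%, background 12.5%, adult kidney background 5.01%) and neither at 50 (8.96%, background 53.6%, adult kidney background 2.31%). Kidney-only regions thus had a P6 kidney peak more often than all merged regions and less often than those open in both adult kidney libraries, differences that were not tested. The libraries differ in size, with 61017 and 43882 peaks. With the 27160 strongest peaks of every P6 endothelial library, the share in both was 47.0% for kidney-only regions, 20.3% for all merged regions and 75.7% for those in both adult kidney libraries. The fold in the weaker adult library had a median of 3.5 for regions in both P6 libraries, 3.4 for those in 1 and 3.16 for those in none.

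At P6, many kidney-only regions also had a peak in endothelium of another organ. The endothelial lists of the other organs held 27160 to 92863 peaks at P6 and 19464 to 47334 in adults. Sharing at P6 and in adults is thus not on equal terms, and no change with age is read from it. Of the 558, 208 (37.3%, background 12.2%, adult kidney background 2.83%) had no peak in any of the 12 other P6 endothelial libraries, and 116 (20.8%, background 45.4%, adult kidney background 89.8%) had one in at least 6. P6 heart libraries covered 34.2 and 37.5% of the kidney-only regions and P6 lung 33.2 and 36.0%. The range was 14.2 to 27.6% in liver, 19.4 to 22.2% in retina and 3.23 to 19.4% in brain, where the lowest list held 27160 peaks. In each of these libraries the share of all merged regions was higher, from 22.7 to 57.1%. The P6 kidney libraries had a peak at 90.5 and 77.1% of kidney-only regions, at 45.1 and 35.2% of all merged regions and at 97.3 and 93.1% of those in both adult kidney libraries. In the other P6 libraries the last set stood at 66.6 to 91.8%.

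**Figure D3:**
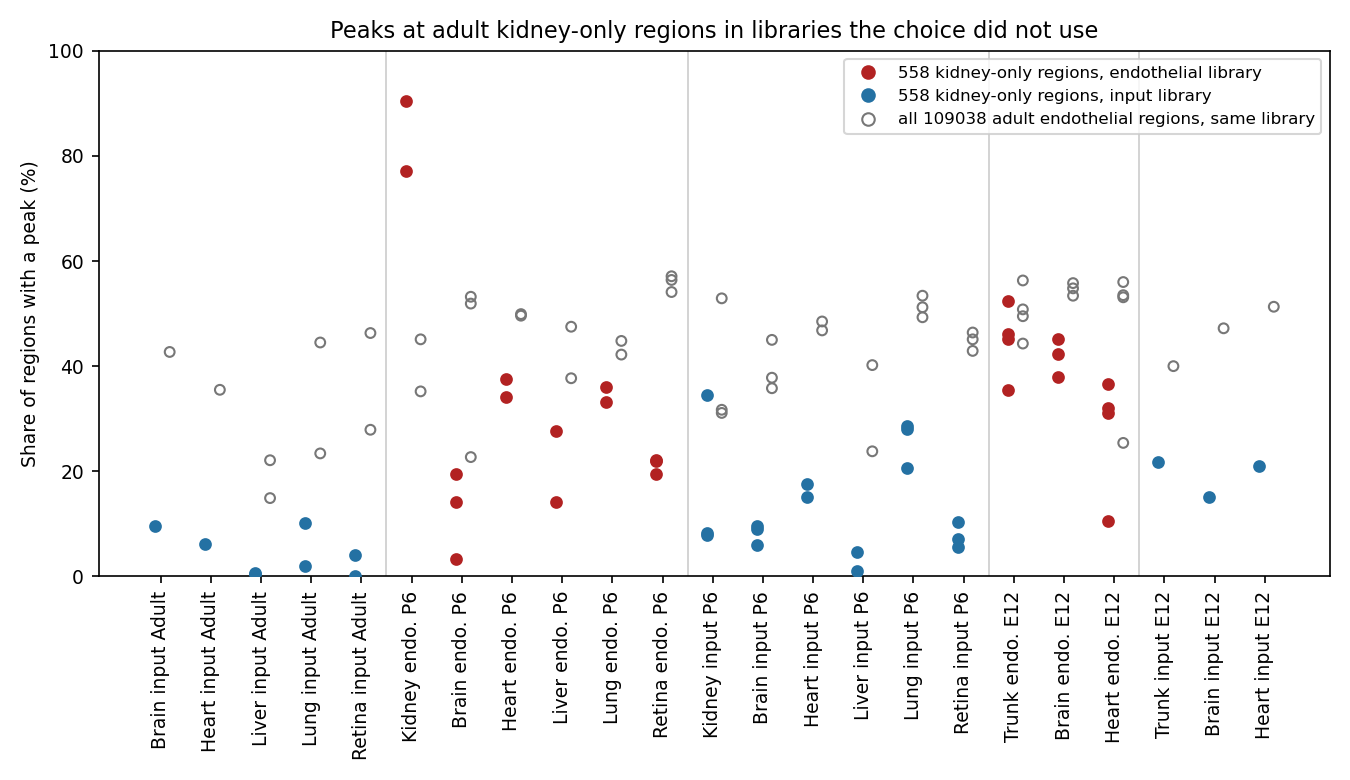
Share of regions (%) with a peak in each library that the choice did not use, by organ and age. Filled points are the 558 kidney-only regions (red endothelial, blue input) and open points all 109038 regions in the same library. The kidney points at P6, 90.5 and 77.1%, lie above their open points, which stand for all merged regions and not for those open in adult kidney.

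A peak in both P6 kidney libraries and in none of the 12 others was found at 126 kidney-only regions (22.6%, background 0.582%, adult kidney background 1.34%). Among the 715 input-overlapping regions the share was much the same, 23.1%, so it is not particular to the kidney-only regions. P6 libraries had no part in the choice, but adult and P6 kidney share an organ and, by the names of aligned reads in the file headers, much of the read processing. Each region was also tested over the 14 P6 endothelial libraries with an exact two-sided permutation test of kidney against the rest. With 2 libraries against 12, the smallest p possible was 0.011, and after Benjamini-Hochberg adjustment over 109038 regions 0 passed, with adjusted p of 1.0. A pass would have needed far more regions at the smallest p than the 1244 with p under 0.05. The 0 thus follows from the few libraries and says nothing about restriction. Unadjusted, p was under 0.05 and higher in kidney for 161 of 558 kidney-only regions (28.9%, background 0.843%). These are the 126 and the 35 with a peak in both kidney libraries and 1 other, so that the count restates presence and adds nothing to it. Of the 126, 49 lay inside a gene (38.9%, beside 40.7% of the 558 and 60.3% of all merged regions). No P6 kidney input had a peak at 94 (74.6%, beside 64.2 and 46.0%), or at 118 with input 1 left out, and no trunk library at 87 (69.0%, beside 42.3 and 40.9%). Over the 635 merged regions with the same P6 pattern these shares were 47.1, 33.7 and 75.9%.

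Of the 126, the strongest by the weaker P6 library were named. K016, at chr1:103303572-103303892 and more than 1 Mb from any protein-coding gene, had folds of 2.92 and 3.94 in the adult libraries and 7.83 and 6.32 at P6. Folds of libraries of different depth are not on a common scale, so no change with age is read from them. K156 lay inside Fam184b with 6.54 and 6.17 at P6, and K178 near Gm52796 with 6.69 and 6.07. K054 lay inside B3galt1, a glycosyltransferase gene, with 6.24 and 5.72, and K359 inside Ptprq, a receptor phosphatase gene, with 6.62 and 5.69. K270 stood 15.5 kb before Nfat5, the gene of the transcription factor that answers osmotic stress, at chr8:107277341-107277949. Its folds were 3.82 and 5.54 in adult and 6.87 and 5.52 in P6 kidney, with a peak in 1 trunk library (3.4), in 1 E12 brain library and in 2 of 3 P6 kidney inputs. The others were K017 inside Dpp10, K525 near Zfp608, K201 inside Tmcc1 and K422, 4.24 kb from Rmi1. Of the 10, 7 had a peak in a P6 kidney input, K156 and K054 in all 3, K270 in 2 and K016, K017, K201 and K422 in 1. Such a peak lay at 25.4% of the 126, 35.8% of the 558 and 54.0% of all merged regions. The named regions thus had input peaks more often than the 126 they come from. Over the 635 merged regions with the same P6 pattern the share was 66.3%. Over all 10, the P6 kidney folds ran from 5.18 to 7.83 and the adult ones from 2.92 to 5.54.

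At E12, the shares of the regions covered by libraries of the trunk, which holds the developing kidney among many other tissues, and of the brain overlapped. The 4 trunk endothelial libraries had a peak at 45.2, 35.5, 46.1 and 52.3% of the regions (mean 44.8%, SD 6.94, n = 4). They had one at 49.5, 44.3, 50.8 and 56.3% of all merged regions. At least 2 trunk libraries had one at 264 (47.3%, background 53.1%, adult kidney background 90.6%). All 4 had one at 178 (31.9%, background 40.9%, adult kidney background 85.1%) and none at 236 (42.3%, background 40.9%, adult kidney background 7.42%). With the 39096 strongest peaks of every E12 endothelial library, at least 2 trunk libraries had one at 22.4% of kidney-only regions, 31.4% of all merged regions and 78.0% of those in both adult kidney libraries. With all peaks, the shares were near those of all merged regions and far from those of regions open in both adult kidney libraries. E12 brain endothelium covered 38.0 to 45.2% (53.4 to 55.8% of all merged regions). E12 heart covered 10.6 to 36.6% (25.4 to 56.0%), the lowest from a list of 39096 peaks. The trunk and brain ranges overlapped, but at least 2 brain libraries had a peak at 232 regions (41.6%, background 54.8%, adult kidney background 89.7%), further below background than trunk. The choice barred adult brain and heart endothelial peaks and had no trunk library to bar. This contrast is therefore not independent of the choice, and no closeness to trunk is read from it. At least 2 libraries of each of trunk, brain and heart had a peak at 140 regions (25.1%, background 44.7%, adult kidney background 85.7%), and no E12 endothelial library at 194 (34.8%, background 29.3%, adult kidney background 4.59%). By the names of aligned reads in the headers, read processing differed between trunk, brain and heart, so that it and the organ cannot be told apart at E12.

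**Figure D4:**
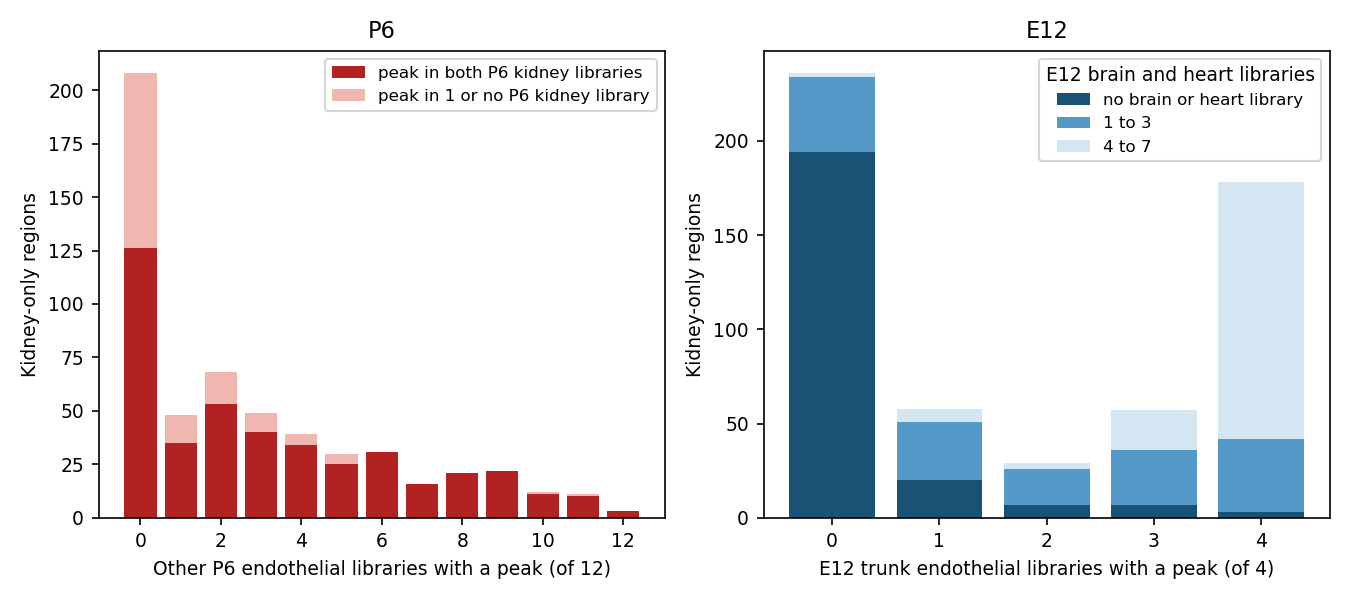
Number of kidney-only regions by the number of other P6 endothelial libraries with a peak (left) and by the number of E12 trunk libraries with a peak (right, shaded by the number of E12 brain and heart libraries). At P6 the tallest bar is the 208 regions with no other library, and at E12 most regions fall at 0 (236) or 4 (178) trunk libraries.

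At 17 kidney-only regions (3.05%, background 0.479%, adult kidney background 0.32%) a peak lay in at least 2 trunk libraries and in no E12 brain or heart library. Among the 715 input-overlapping regions the share was 1.82%. Both sets were chosen to lack adult brain and heart endothelial peaks, so the share is not independent of the choice. For 3 of the 17, a peak lay in all 4 trunk libraries. K241 lay more than 1 Mb from Efnb2 at chr8:7554787-7555113, with trunk folds of 3.97, 3.35, 5.7 and 4.77. At P6, 1 kidney and 1 liver endothelial library had a peak at K241. K346, inside the mitochondrial complex I gene Ndufa12 at chr10:94211707-94212112, had 4.55, 3.48, 4.29 and 4.89 in trunk and 6.28 and 6.34 in P6 kidney. Both P6 liver and both P6 lung endothelial libraries shared K346. K419, 362 kb from Hdgfl1 at chr13:26405737-26406174, had 2.91, 3.07, 3.04 and 3.96 in trunk, 5.79 and 4.16 in P6 kidney and no peak in another P6 endothelial library. With a peak in 3 trunk libraries came K222 inside Dlg2, K114 inside Dkk2, K054 inside B3galt1, K293 near Zc3h12c, K297 inside Rora, a nuclear receptor gene, K394 inside Cyria, and K035 inside Cd34, which encodes a surface sialomucin of endothelium and blood progenitors. K035, at chr1:194943453-194943880, had 3.47 and 4.29 in adult kidney, 4.0 and 3.48 in P6 kidney and 2.06, 2.37 and 2.34 in trunk, and both P6 lung libraries shared it. Of the 17, 16 had a peak in both P6 kidney libraries (94.1%, beside 76.5% of the 558, 33.9% of all merged regions and 92.7% of those in both adult kidney libraries). A P6 kidney input had a peak at 11 of them (64.7%, beside 35.8, 54.0 and 92.4%). In the exact two-sided permutation test of 4 trunk against 7 brain and heart libraries, the smallest p possible was 0.00303 and 0 regions passed after adjustment (adjusted p of 1.0). Here too a pass would have needed far more regions at the smallest p than the 494 with p under 0.05, so the 0 is not informative. Of the kidney-only regions, 15 had an unadjusted p under 0.05, all higher in trunk (2.69%, background 0.257%), which again recounts presence: 10 of them are among the 17 and 5 had all 4 trunk libraries and 1 other. Without trunk library 4 the 17 became 10.

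Read across ages, the regions fell into a few patterns. Both P6 kidney libraries and at least 2 trunk libraries had a peak at 242 (43.4%, background 31.4%, adult kidney background 87.4%). Both P6 kidney libraries but no E12 endothelial library had one at 110 (19.7%, background 0.996%, adult kidney background 2.19%), and 80 of these (14.3%, background 0.392%, adult kidney background 0.904%) had no peak in another P6 endothelial library either. Among the 715 input-overlapping regions the 2 shares were 22.4 and 16.4%, so neither pattern is particular to the kidney-only regions. Only 2 regions (0.358%, background 12.5%, adult kidney background 0.486%) had a peak in at least 2 trunk libraries and none in P6 kidney. Neither P6 kidney nor any E12 endothelial library had a peak at 41 (7.35%, background 27.0%, adult kidney background 1.27%). No P6 or E12 endothelial library of any organ had a peak at 36 (6.45%, background 8.83%, adult kidney background 0.725%). Wide sharing at P6 went with peaks in trunk, as it did over all merged regions. Among the 116 in at least 6 other P6 libraries, 107 (92.2%) had a peak in at least 2 trunk libraries, compared with 23 of the 208 in no other P6 library (11.1%). Over all merged regions the same shares were 90.5 and 4.32%, and over regions in both adult kidney libraries 96.7 and 8.73%. A peak in both P6 kidney libraries and at least 2 trunk libraries, and in no other P6, E12 brain or E12 heart endothelial library, was found at 6 (1.08%, background 0.0211%, adult kidney background 0.0426%).

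The 10 strongest were ranked by the fold in the weaker adult library. Regions with no P6 kidney peak reached 4.66 by that measure, below all of the 10. K004 inside Rims1, a synaptic gene, had 5.86 and 5.9 in adult kidney, 5.94 and 4.39 at P6 and 2.75 in 1 trunk library. It also had a peak in 2 P6 brain, 3 E12 brain and 1 E12 heart endothelial libraries and in 1 adult input of another organ. K368, 32.5 kb from Spata48 at chr11:11547724-11548330, had 5.86 and 5.91 in adult and 3.98 and 2.84 in P6 kidney, with no peak in any other P6 or E12 endothelial library. K354, 400 kb from the nearest protein-coding gene, had 5.48 and 5.87 in adult and 5.95 and 4.14 in P6 kidney and also had no peak in another P6 or E12 endothelial library. K403 inside Nrcam, a cell adhesion gene, had 5.95 and 5.41 in adult, 7.06 and 5.84 in P6 kidney and 5.25, 4.91, 5.75 and 5.12 in trunk. It was shared by 3 other P6, 3 E12 brain and 1 E12 heart endothelial libraries. K551, 35.8 kb from Klhl4 on chromosome X, had 6.02 and 5.38 in adult, 6.31 and 6.14 at P6 and 4.65 to 6.37 in trunk. Another 4 P6, 3 E12 brain and 3 E12 heart endothelial libraries shared K551. Others were K358 near Tmtc2, K112 near Dkk2, K017 inside Dpp10 and K459 near Prr30. All 10 had a peak in both P6 kidney libraries (76.5% of the 558, background 33.9%), 5 in all 4 trunk libraries (31.9%, background 40.9%) and 4 in none of them (42.3%, background 40.9%). No other P6 endothelial library had a peak at 3 of the 10 (37.3% of the 558, background 12.2%).

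**Figure D5:**
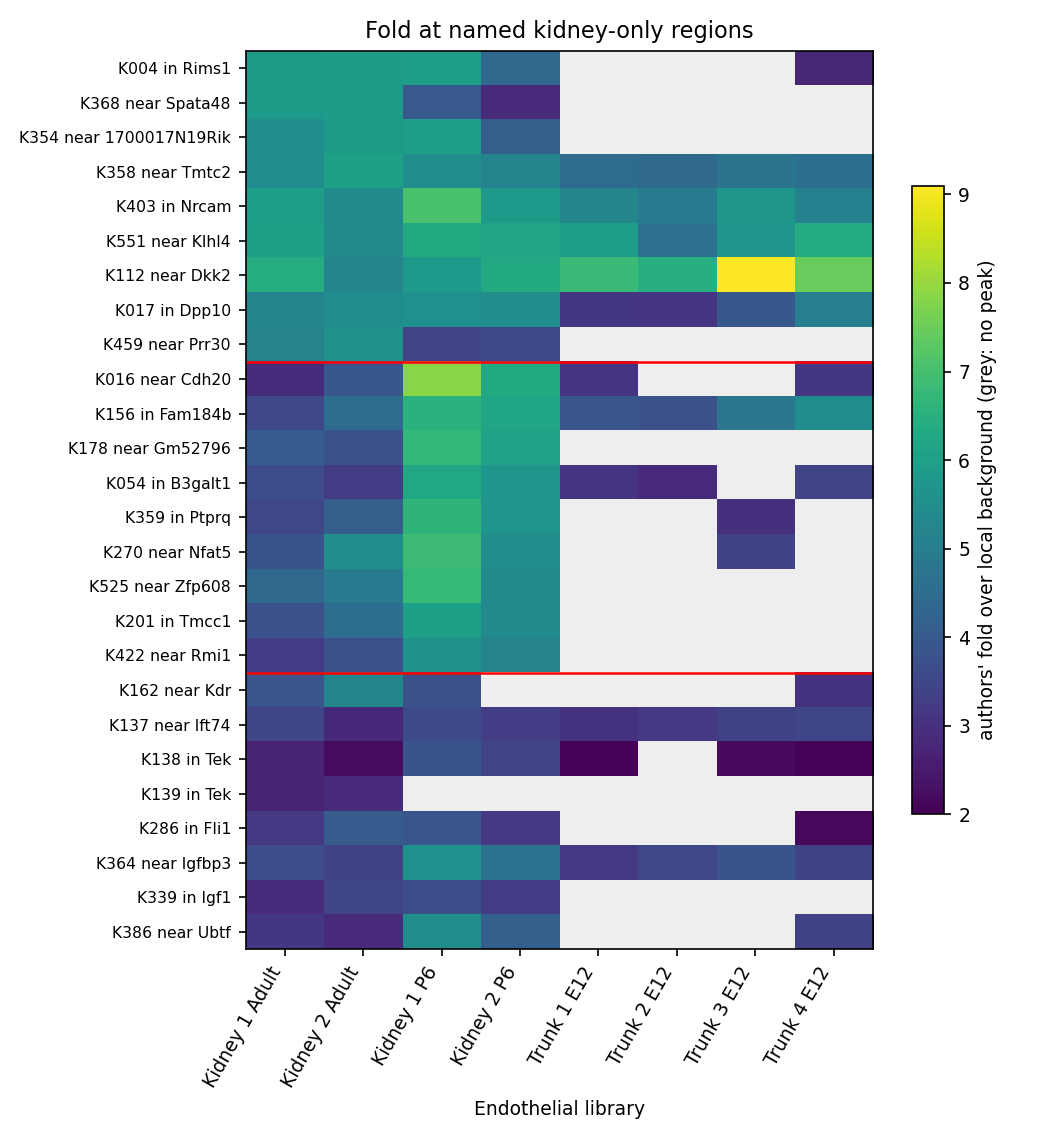
The authors' fold over local background at 9 of the 10 strongest kidney-only regions (top), the strongest P6-restricted ones not already shown (middle) and the 8 at list genes (bottom), labelled by the nearest protein-coding gene, in 2 adult and 2 P6 kidney and 4 trunk endothelial libraries. Grey means no peak. K112 near Dkk2 reaches 9.09 in trunk library 3, and K368 and K354 have no trunk peak.

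Inputs and markers bear on these counts. Only list genes with a start in the promoter table could be checked at their starts, 10 of the 18 general endothelial and 25 of the 38 epithelial genes. In adult kidney, a peak lay within 1 kb of a start at all 10 general endothelial genes in both endothelial libraries, and at 2 and 8 of 10 in the inputs. For the 25 genes of nephron epithelium, the counts were 2 and 8 in the adult endothelial libraries and 13 and 18 in the adult inputs. At P6 they were 12 and 5 in the endothelial libraries and 20, 18 and 17 in the inputs. Epithelial starts thus had peaks in every kidney endothelial library, most in P6 library 1, and their part in the results was not tested. Of the 558 regions, 200 (35.8%, background 54.0%, adult kidney background 92.4%) had a peak in at least 1 P6 kidney input. P6 input 1, whose list held 115914 peaks, covered 34.6%, and inputs 2 and 3 covered 8.24 and 7.89%. Of all merged regions these 3 inputs covered 52.9, 31.1 and 31.7%. Without input 1 the share was 12.2%, beside 35.4% of all merged regions and 80.0% of those in both adult kidney libraries. Input 1 also had a peak at 10 of 10 endothelial starts, and the others at 8 and 7. It stands apart from the other 2, and whether its label is right was not tested. Both P6 kidney endothelial libraries and no P6 kidney input had a peak at 244 (43.7%, background 3.65%, adult kidney background 5.34%). Without input 1 this was 363 (65.1%, beside 9.53% and 16.4%). The 715 input-overlapping regions stood at 4.2%, and at 9.93% without input 1. The choice barred adult kidney input peaks, so shares in P6 kidney inputs are not independent of it. Inputs of other adult organs had at least 1 peak at 121 regions (21.7%, background 75.2%, adult kidney background 92.3%), and trunk input covered 21.7% (40.0% of all merged regions).

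The 715 regions that met the endothelial conditions but overlapped a kidney input peak differed in some of these shares. A peak in both P6 kidney libraries and in no other P6 endothelial library was about as frequent, at 23.1% against 22.6%. Both P6 kidney endothelial libraries had a peak at 55.0% of them, compared with 76.5% of the kidney-only regions, and at least 2 trunk libraries at 25.5%, compared with 47.3%. At least 1 P6 kidney input had a peak at 92.2%, compared with 35.8%, but the 2 sets were divided by adult kidney input peaks. By the same rule, 2345 brain-only, 1006 heart-only, 5637 liver-only, 53 lung-only and 37 retina-only regions were found. The share with a peak in at least 2 of the organ's own P6 libraries was 79.1% for brain, 81.6% for heart, 69.8% for liver, 86.8% for lung and 45.9% for retina, with 76.5% for kidney within that range. Brain and retina have 3 P6 libraries and the others 2, and brain and heart were filtered against 1 adult input and the others against 2, so that neither the numbers nor the shares are on equal terms. The share in at least 2 trunk libraries was 23.8% for brain, 42.3% for heart, 45.5% for liver, 35.8% for lung and 37.8% for retina, and 47.3% for kidney. No test of these differences was made, since regions are not replicates of an organ.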

How the data were processed

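ATAC-seq of 66 libraries was used, and the RNA-seq and single-cell files were not used here. Reads were processed with Bowtie2, SAMtools 1.13, Picard and MACS2 on mm10, per the submitters' processing notes. The authors called peaks per library with MACS2 2.1.2 in broad mode with no control, tags shifted by -100 bp and extended to 200 bp, a q-value of 0.05 (strong) and 0.1 (broad) and duplicates limited to 1 per position, per the file headers. The deposited lists give a signal (pileup), a ratio (fold over local background) and −log10 p and q per peak, the authors' own values. Depth was 10.1 to 59.1 M tags (M, mega) kept, with 25.9 and 27.0 M in adult kidney endothelium, per the file headers. The number of peaks did not follow the number of tags: 19464 came from 45.4 M in adult lung endothelial library 2 and 91197 from 14.0 M in P6 retina endothelial library 1.

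Peaks of the adult endothelial lists were merged where they shared at least 1 bp, and a library counted as open at a region where a peak overlapped it by 1 bp, with Python 3.11.15, numpy 2.4.6 and pandas 2.3.3. The choice and the permutation tests were checked on simulated data. Gene bodies and starts came from RefSeq tables of GRCm38.p6, the reference form of mm10. The promoter table holds starts of 17492 of 21887 protein-coding genes, so the nearest gene was taken by gene body, not, as planned, by start. The members and lists were chosen with earlier results of these data known. Named were the 10 strongest regions in adult kidney, at P6 among those restricted to kidney, and in trunk among those restricted to it, the 10 genes nearest to the most regions, every region at a list gene, and the regions at the edge of the choice. Regions at the promoters and in the 5 intervals were added after the values were seen. Of the strongest regions and of the intervals, 1 each is not reported here.

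The 18 motifs, searched on both strands, were the E-box (CAGCTG), ETS (GGAAGT), FOX (TGTTTAC), that of GATA factors (AGATAA), HNF4 (CAAAGTCCA), HOX (TTTATGG or TGATTTAT, counted as 2), KLF (GGGTGTGG), RUNX (TGTGGTT), SOX (ACAATG), the T-box (AGGTGTGA) and TEAD (ACATTCCA), with AP-1, COUP-TF, CTCF, HNF1, MEF2 and NFKB searched as fixed words named here only. TTTATGG and TGATTTAT overlap in TTTAT. The planned motif search in all regions, which needs a genome, and the planned RNA test of nearest genes, which needs a table of transcripts and genes, were not run.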

Additional observations from a re-analysis of the deposited data

Results flagged for a closer look

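Values of groups of 4 to 10 libraries were checked for 1 library far from the rest. The 14 checks were of the share of kidney-only regions in a group and, mostly, of the trunk folds at a named region. Of these, 1 stood out, where chance gives about 1 in 20 for independent checks. The fold checks use the same trunk libraries and are not independent, and K419 was itself named for its peaks in trunk. At K419, 362 kb from Hdgfl1, trunk libraries 1 to 3 had folds of 2.91, 3.07 and 3.04 and library 4 had 3.96, so that the gap to the next library was 0.848 of the whole range. Trunk library 4 had the most tags of the trunk libraries, 59.1 M (mega), and the most peaks, 107071.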

How the results depend on the processing

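The number of kidney-only regions was 497 with a −log10 q of at least 3 in every library, 731 with the 19464 strongest peaks of each, and 515 with no peak allowed within 500 bp. It fell to 278 with that q in the kidney lists alone and rose to 1273 without the input condition. Leaving out 1 library gave 560 to 2019, the highest without adult kidney endothelial library 1, with 898 without library 2 and 794 without kidney input 2. The share in both P6 kidney libraries (76.5%) was 65.4% with 50% reciprocal overlap, 61.1% with the stricter P6 peaks, 47.0% with equal numbers of P6 peaks and 82.7% for the 278 regions, and 77.1 to 90.5% with 1 library left out. The share in at least 2 trunk libraries (47.3%) was 37.3% with reciprocal overlap, 40.3% with stricter E12 peaks, 22.4% with the 39096 strongest peaks of each E12 library, and 42.5 to 47.0% with 1 library left out. Under those 3 settings all merged regions gave 24.8, 27.5 and 20.3% in both P6 kidney libraries and 44.3, 47.1 and 31.4% in trunk, and regions in both adult kidney libraries 74.7, 86.5 and 75.7% and 84.4, 87.9 and 78.0%. Each time kidney-only regions lay between the 2 sets at P6 and below both in trunk. The P6-restricted count was 114 to 163 over its 16 alternatives, 126 to 163 with 1 library left out. The trunk-restricted count was 10 to 24 with 1 library left out and 20 with equal numbers of peaks, and the share in P6 kidney inputs 12.2 to 35.3%, alternatives chosen after the data were seen. The share near a start was 1.45% for protein-coding starts (11.8% of all merged regions), 10.7% within 5 kb (23.6% of all merged regions) and 2.56% for the 278 regions. Of 31 kidney endothelial list genes, 2 had a region within 50 kb, 1 within 10 kb, 3 within 100 kb and 0 for the 278 regions. The cause of these changes was not tested. Replicate numbers are shared between groups, but no source says that they mark a common animal, litter or day. With a replicate block, labels exchanged only among libraries of the same number, 0 regions passed after adjustment (adjusted p of 1.0), as without it. With so few libraries neither 0 is informative. The smallest p was then 0.0278 at P6 and 0.0185 at E12, and 127 and 8 kidney-only regions had an unadjusted p under 0.05 and were higher in kidney or trunk, in exact permutation tests chosen after the data were seen. The same held for 0.611% (P6) and 0.143% (E12) of all merged regions. The RNA test with its block was not run. Depth limits absences: a region with no peak in a list of 27160 or 39096 peaks may be open below its threshold. The same holds for the adult endothelial lists of the other organs, of 19464 to 47334 peaks, on which the choice rests.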
